A study of Mus musculus with 34 samples.

Results

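The p11 complex is described here through 4 genes, S100a10, Anxa2, Ahnak and Hltf, which were taken by symbol from the 24485 genes counted in each of the 3 sources of the series. S100a10 encodes p11, an S100 protein that has lost the ability to bind calcium. Anxa2 encodes annexin A2, a membrane-binding protein that joins p11 in a heterotetramer and protects it from degradation. Ahnak encodes a very large scaffold protein that the tetramer holds at the plasma membrane, where AHNAK is known to act on L-type calcium channels. Hltf encodes SMARCA3, a SNF2-family chromatin remodelling factor that the tetramer also binds. In rodents, p11 raises the surface level of serotonin receptors 1B and 4, and p11 and SMARCA3 in the dentate gyrus are known to take part in behavioural responses to selective serotonin reuptake inhibitors.

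The 34 libraries came from the hippocampus of wild-type (WT) mice given fluoxetine, such an inhibitor, or vehicle. There were 4 vehicle and 4 fluoxetine libraries from granule cells, which send the mossy fibres to CA3. Mossy cells, excitatory neurons of the hilus, gave 6 and 7 libraries, and so did hippocampus. All RNA is labelled as precipitated by TRAP (translating ribosome affinity purification), which pulls down tagged ribosomes with the mRNA on them. The driver of the tag, the dose, the duration and the age of the mice are not given in the sources used here. Beyond the TRAP label, it is not said whether the hippocampus libraries hold ribosome-bound RNA or input RNA taken before the pull-down. Nor is it said which cells carried the tag there. Nothing in the labels says that replicates came from separate animals, so p-values measure the spread between these libraries, which may be technical.

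Total counts were 14.1 to 45 M per library, and the lowest was granule-cell vehicle library 1. Levels are CPM, read counts scaled to library size by TMM over all 34 libraries, and errors of means are SDs. The 7 granule-cell markers summed to 1263 to 1434 CPM in granule-cell vehicle libraries and to 552 to 616 in hippocampus, and the 7 mossy-cell markers to 313 to 475 in mossy-cell vehicle libraries against 41.4 to 45.6 in hippocampus. Calb2 made up most of the latter sum (mean 325 CPM in mossy cells with vehicle), and of the 7 markers 6 were higher and 1, Calcrl, was lower in mossy cells than in hippocampus (log2 −2.27, edgeR adjusted p = 4e-07). Of all genes tested, 31.3% were higher and 32.8% lower in mossy cells than in hippocampus with vehicle. The 8 interneuron markers were also high in mossy-cell libraries, at 3129 to 4342 CPM with vehicle against 505 to 572 in hippocampus. Some libraries stood apart. Vehicle libraries 1, 2 and 4 held 1459 to 5336 CPM of 5 choroid plexus markers in hippocampus, where the other vehicle libraries held 21.4 to 32, and the same numbers held 44.8 to 278 CPM in mossy cells, where the others held 4.15 to 6.07. Fluoxetine library 4 held 5282 CPM of 8 astrocyte markers in hippocampus (other fluoxetine libraries 1547 to 2163) and 1119 in mossy cells (others 282 to 501), and 241 and 109 CPM of 8 microglia markers (others 49.5 to 100 and 16.4 to 32.4). Leaving out any 1 library gave none of the 4 genes a called fluoxetine effect.

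S100a10 lies on chromosome 3 (GRCm38, chr3:93555080-93564643, plus strand) and was the most abundant of the 4 genes per length in every group. Per kilobase of exon, its vehicle level was 21.2 CPM in mossy cells, 10.3 in hippocampus and 6.59 in granule cells. It stood above 88% of the 18025 genes with a count in mossy-cell vehicle libraries, above 80.7% of genes in hippocampus and above 68.5% in granule cells. Among the other 3 genes the order per kilobase differed between sources. In mossy cells with vehicle, Hltf (2.37 CPM per kilobase) stood above Anxa2 (0.276) and Ahnak (0.116). In hippocampus Hltf (2.87) was followed by Ahnak (1.31) and Anxa2 (0.863), and in granule cells Hltf (2.24) was followed by Ahnak (1.47) and Anxa2 (1.12).

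**Figure D1:**
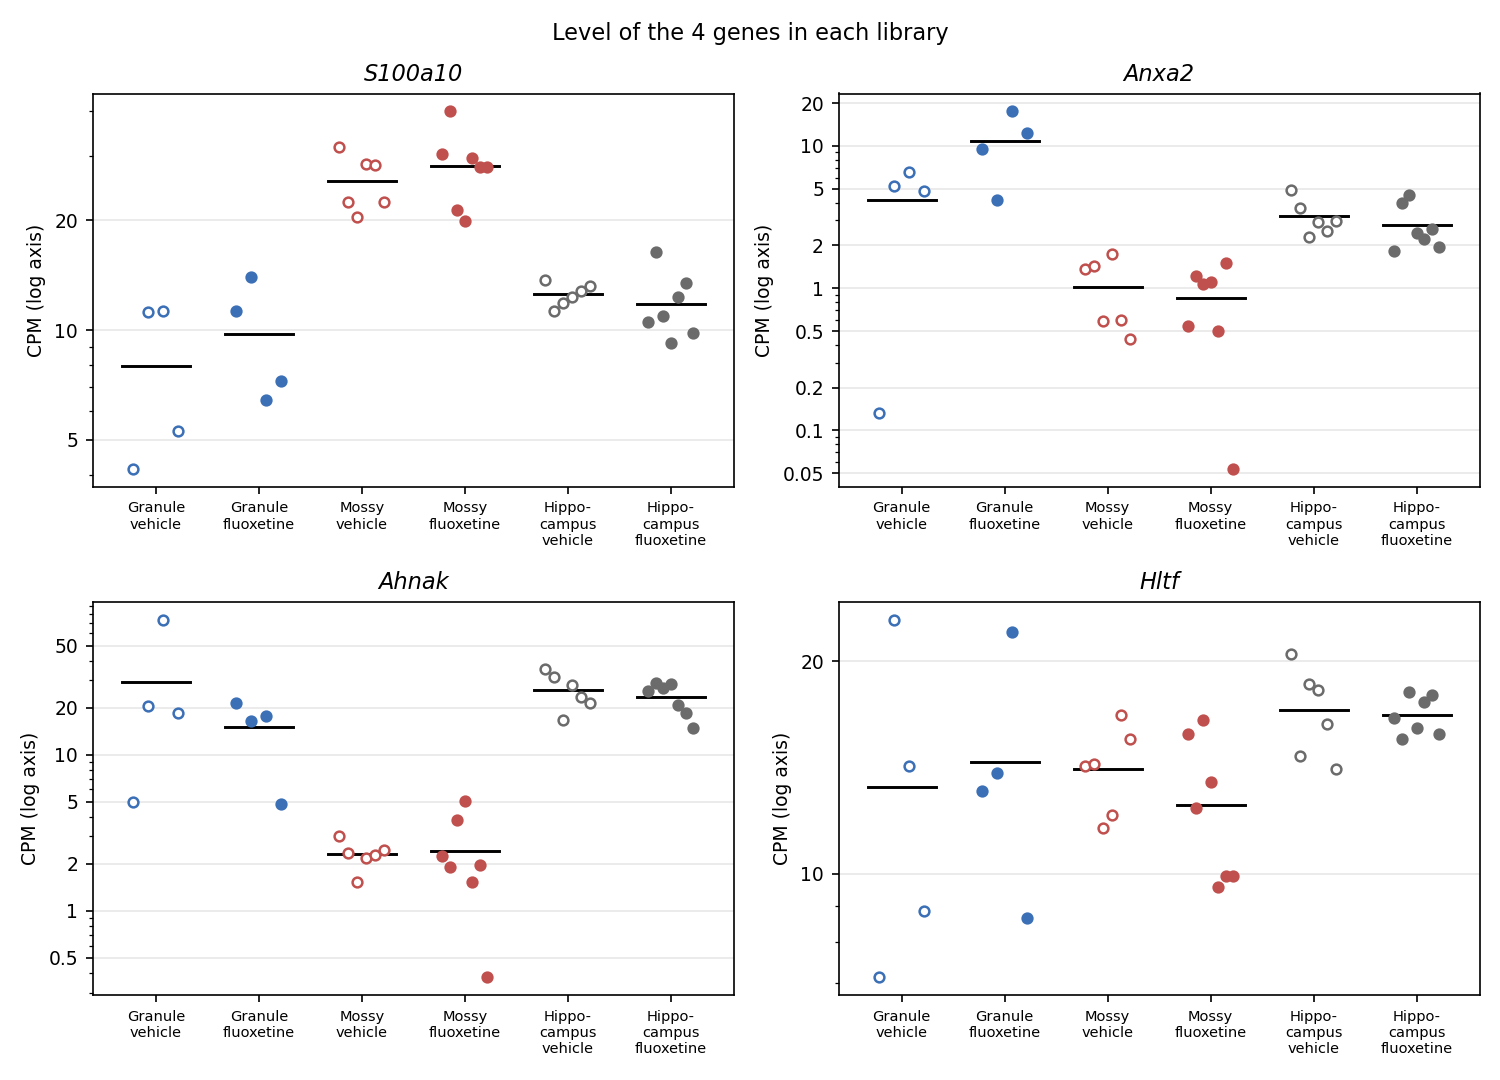
CPM (log axis) of S100a10, Anxa2, Ahnak and Hltf in each of the 34 libraries, by source and treatment. Open points are vehicle, filled points fluoxetine, and the black line is the group mean; S100a10 is high and Ahnak low in all 13 mossy-cell libraries.

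Between sources, S100a10 went one way and Anxa2 and Ahnak the other. With vehicle, S100a10 mRNA was 2.05-fold higher in mossy-cell than in hippocampus libraries, Anxa2 mRNA 3.12-fold lower and Ahnak mRNA 11.3-fold lower, while Hltf did not pass the test. Source and capture of the RNA cannot be told apart in this comparison. In RNA such as this, fewer cells of a type and less RNA per cell cannot be told apart either. Same-numbered vehicle libraries of mossy cells and hippocampus deviated together (r of 0.20 to 0.42 over 9727 genes). The p-values and intervals given are from fits that do not pair them. With replicate number as a block, directions and calls of the 4 genes between these sources were the same. In the fit across all genes (edgeR quasi-likelihood test, adjusted p under 0.05), 3 of the 4 genes passed in vehicle libraries, 1 higher and 2 lower in mossy cells. Among all 15922 genes tested, 31.3% were higher and 32.8% lower, so that most genes differed between these sources and a call alone is not particular to the complex.

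S100a10 in vehicle libraries had a lowest, median and highest level of 20.4, 25.4 and 31.8 CPM in mossy cells. In hippocampus these were 11.3, 12.6 and 13.7 CPM. All 6 mossy-cell libraries lay above every hippocampus library. The mean was 25.7 ± 4.48 CPM (n = 6) against 12.5 ± 0.868 (n = 6), a fitted difference of 1.03 ± 0.15 (SE) on the log2 scale or 2.05-fold (95% interval 1.66 to 2.53), with an edgeR adjusted p of 4.69e-07. Without vehicle libraries 1, 2 and 4 of both sources the log2 difference was 0.91 (edgeR adjusted p = 0.00165). Among fluoxetine libraries S100a10 ranged from 19.9 to 39.8 CPM in mossy cells with a median of 28, and from 9.2 to 16.4 in hippocampus with a median of 10.9. All 7 mossy-cell libraries again lay above every hippocampus library, at 2.42-fold (interval 1.99 to 2.94, edgeR adjusted p = 1.9e-09), where 4 of the 4 genes passed and 36% of all genes were higher and 34.1% lower.

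Interneurons of the dentate gyrus are also known to express p11, and most interneuron markers were, like S100a10, higher in mossy-cell libraries. Sst (mean 1551 CPM) and Gad2 (1064) were the largest parts of their sum in mossy cells with vehicle. Of the 8 markers, 7 were higher in mossy cells than in hippocampus with vehicle and 1, Vip, was lower, against 31.3% and 32.8% of all genes. Around the group means, S100a10 followed the summed interneuron markers with a Pearson r of 0.59 over the 13 mossy-cell libraries and 0.68 over the 13 hippocampus libraries, but with −0.79 over the 8 granule-cell libraries. Over all 34 libraries this r was −0.15 (Spearman's coefficient −0.16). With the summed mossy-cell markers it was 0.27 in mossy cells, 0.56 in hippocampus and 0.17 in granule cells. Of all marker lists, endothelial and mural had the highest r with S100a10 over 34 libraries (0.47) and oligodendrocyte the lowest (−0.40). The endothelial and mural r was −0.32 in mossy cells, −0.10 in hippocampus and 0.79 in granule cells. These are descriptions over libraries that share depth and preparation. The part of interneuron RNA in the S100a10 difference was not tested.

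Anxa2 (chr9:69453620-69491795, plus strand) had few counts in mossy cells. In vehicle libraries its lowest, median and highest levels were 0.437, 0.981 and 1.75 CPM in mossy cells, from 15 to 66 counts, and 2.3, 2.94 and 4.91 CPM in hippocampus. Every mossy-cell library lay below every hippocampus library. The means were 1.03 ± 0.55 and 3.22 ± 0.953 CPM (n = 6 each), a log2 difference of −1.64 ± 0.42 or 3.12-fold lower in mossy cells (edgeR adjusted p = 0.00116). Within mossy cells, vehicle libraries 1, 2 and 4, those with the choroid plexus markers, held the 3 highest Anxa2 levels with vehicle (1.36, 1.43 and 1.75 CPM, against 0.591, 0.6 and 0.437 in libraries 3, 5 and 6). Without these 3 libraries in mossy cells the log2 difference was −2.57 (5.92-fold, edgeR adjusted p = 0.00031), and without those numbers in both sources it was −2.26 (4.79-fold, adjusted p = 0.00449). With fluoxetine, Anxa2 spanned 0.0536 to 1.51 CPM in mossy cells and 1.83 to 4.54 in hippocampus, again without overlap, and was 3.2-fold lower in mossy cells (edgeR adjusted p = 0.000416). An antisense gene, Gm16144, and the microRNA gene Mir3109 overlap Anxa2 and share 98 of its 3731 exon bases. Whether the counting used strand is not given in the sources used here, so reads of an antisense partner cannot be told apart.

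Ahnak (chr19:8989284-9076914, plus strand) showed the largest difference of the 4 genes between mossy cells and hippocampus. In vehicle libraries the lowest, median and highest levels were 1.53, 2.32 and 3.03 CPM in mossy cells and 16.6, 25.7 and 35.4 in hippocampus. Every mossy-cell library again lay below every hippocampus library. The means were 2.3 ± 0.483 and 26 ± 6.89 CPM (n = 6 each), and Ahnak was 11.3-fold lower in mossy cells (log2 −3.50 ± 0.32, edgeR adjusted p = 8.9e-11). With fluoxetine it was 9.52-fold lower (log2 −3.25 ± 0.29, edgeR adjusted p = 4.18e-11), with 0.375 to 5.03 CPM in mossy cells and 14.8 to 29 in hippocampus. A correction for GC content and length left this fluoxetine-group value at 5.78-fold. In hippocampus, vehicle libraries 1, 2 and 4, those with the choroid plexus markers, held the highest Ahnak levels with vehicle (35.4, 31.4 and 28.1 CPM). Libraries 3, 5 and 6 held 16.6, 23.3 and 21.5 CPM. Ahnak followed the choroid plexus sum around the group means with r = 0.75 in hippocampus, 0.18 in mossy cells and 0.15 in granule cells. The part of choroid plexus RNA in the Ahnak difference was not tested.

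Markers of the cells that surround neurons were lower in mossy cells together with Ahnak and Anxa2. With vehicle, the 10 endothelial and mural markers summed to 7.41 to 14.6 CPM in mossy cells and 41.4 to 77.6 in hippocampus, and 10 of 10 were lower. The 8 oligodendrocyte markers summed to 97.6 to 167 and 863 to 1221 CPM, the 8 astrocyte markers to 247 to 319 and 1089 to 1389, and the 8 microglia markers to 8.76 to 14.4 and 32.3 to 39.7. In these lists 8 of 8, 8 of 8 and 7 of 8 were lower. Of the 6 fibroblast markers 5 were lower and 1, Dcn, was higher. Over all genes 32.8% were lower and 31.3% higher. No defining marker was at 0 in all libraries of a group. Around the group means, Ahnak followed the endothelial and mural sum with r = 0.72 over 13 hippocampus libraries and 0.85 over 8 granule-cell libraries, and with −0.26 over 13 mossy-cell libraries. With the fibroblast sum its r was 0.61, 0.63 and 0.77 in granule cells, mossy cells and hippocampus. In the same order it was −0.61, 0.18 and 0.78 with the oligodendrocyte sum. With the astrocyte sum it was 0.25, 0.37 and 0.38, and with the microglia sum −0.36, 0.43 and 0.47. For Anxa2 the r was 0.63, −0.38 and 0.28 with the endothelial and mural sum. It was 0.76, 0.37 and 0.55 with the fibroblast sum and 0.01, 0.03 and 0.53 with the oligodendrocyte sum. The part of these cells in the differences of Ahnak and Anxa2 was not tested.

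**Figure D2:**
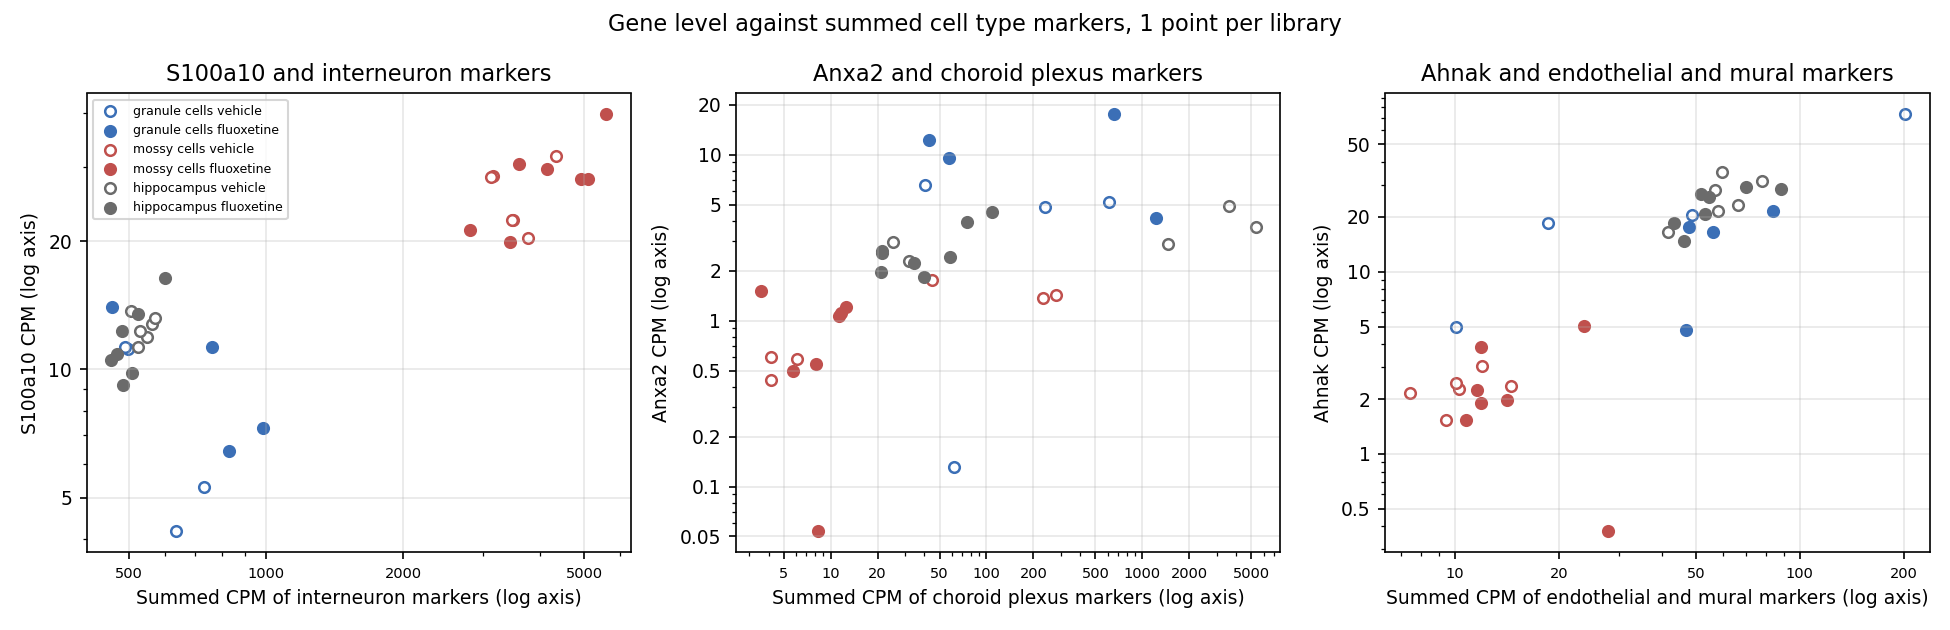
CPM of S100a10, Anxa2 and Ahnak against the summed CPM of interneuron, choroid plexus and endothelial and mural markers, 1 point per library, with log axes. Each panel pairs 1 gene with 1 list, in that order. The mossy-cell libraries have the highest interneuron sums with the highest S100a10 levels, and the granule-cell library with 202 CPM of endothelial and mural markers has the highest Ahnak level.

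Anxa2 and Ahnak deviated together also within groups. After subtracting the 6 group means, their log2 CPM correlated with r = 0.69 (Spearman's coefficient 0.46) over 34 libraries, and with 0.76 over mossy-cell, 0.66 over hippocampus and 0.65 over granule-cell libraries alone. Ahnak and Hltf came to 0.57 (Spearman's coefficient 0.56), with 0.61 in mossy cells, 0.08 in hippocampus and 0.63 in granule cells. Anxa2 and Hltf came to 0.41 (Spearman's coefficient 0.22), with 0.18, 0.19 and 0.56 in the same order. Mossy-cell fluoxetine library 7 held the minima of Anxa2 and Ahnak, with 2 counts of Anxa2 and 14 of Ahnak beside 1045 of S100a10. S100a10 correlated with Anxa2, Ahnak and Hltf at 0.29, 0.32 and 0.33 over the 34 libraries, at 0.07, −0.28 and −0.16 within mossy cells, at 0.40, 0.70 and 0.55 within granule cells and at 0.43, 0.13 and 0.08 within hippocampus. Granule-cell vehicle library 1, with the fewest total counts, held the lowest level of all 4 genes among the granule-cell vehicle libraries. Its part in the granule-cell r was not tested. Anxa2 and Ahnak had the highest Pearson r of the pairs of members, while Ahnak and Hltf had the highest Spearman's coefficient. The 250 bases before the RefSeq transcript starts of Anxa2 and Ahnak (GRCm38.p6, plus strand) are shown, chr9:69453433-69453682 for Anxa2 and chr19:8989034-8989283 for Ahnak. Capitals mark matches, on either strand, to an AP-1 site (TGANTCA), a GC box (GGGCGG) and a TATA box (TATAAA).
Anxa2: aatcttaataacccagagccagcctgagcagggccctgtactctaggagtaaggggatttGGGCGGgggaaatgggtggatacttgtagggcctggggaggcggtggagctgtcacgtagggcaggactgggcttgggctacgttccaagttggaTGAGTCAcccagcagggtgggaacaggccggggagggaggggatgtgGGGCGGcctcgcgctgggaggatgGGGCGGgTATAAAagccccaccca
Ahnak: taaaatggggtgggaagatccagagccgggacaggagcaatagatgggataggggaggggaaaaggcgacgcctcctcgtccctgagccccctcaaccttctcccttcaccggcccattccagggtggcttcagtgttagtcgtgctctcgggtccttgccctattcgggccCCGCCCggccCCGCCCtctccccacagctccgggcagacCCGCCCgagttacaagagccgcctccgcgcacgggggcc

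Both windows hold 3 GC boxes, on the plus strand in Anxa2 (starting at −190, −48 and −24 from the start) and on the minus strand in Ahnak (at −78, −68 and −39). Anxa2 also has an AP-1 match at −95 and a TATA match at −17, and these letters are not in the Ahnak window. The RefSeq start of Anxa2 lies downstream of its GENCODE start (chr9:69453620). The Anxa2 matches at −48, −24 and −17 therefore lie within the gene as placed by GENCODE. The Ahnak window ends just before the GENCODE start of Ahnak (chr19:8989284). Of 32851 promoters in the RefSeq table, 6.75% held the AP-1 letters, 32.7% a GC box and 12.4% the TATA letters in windows of this length. A match is a description of the sequence. Of the 4 genes, 3 matched an entry in that table. The Hltf windows, not shown here, held 1 and 0 GC boxes, 0 and 1 TATA matches and 0 AP-1 matches.

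Hltf (chr3:20057811-20118490, plus strand) was the most even of the 4. In vehicle libraries the lowest, median and highest levels were 11.6, 14.2 and 16.8 CPM in mossy cells and 14.1, 17.3 and 20.5 in hippocampus, and the ranges overlapped. The means were 14.1 ± 2.01 and 17 ± 2.47 CPM (n = 6 each). The log2 difference of −0.28 ± 0.13 did not pass (95% interval −0.55 to −0.01, edgeR adjusted p = 0.0649). With fluoxetine 5 of 7 mossy-cell libraries lay below every hippocampus library, and Hltf passed at −0.40 ± 0.12 (edgeR adjusted p = 0.00461). A correction for GC content and length turned both directions, to 0.16 with vehicle (edgeR adjusted p = 0.282) and 0.06 with fluoxetine (adjusted p = 0.652), so no direction is given for Hltf between these sources.

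The balance of S100a10 to its partners was read within each library, where scaling plays no part. Per exon length, the geometric mean ratio of S100a10 to Anxa2 counts was 85.3 in mossy cells with vehicle (range 48 to 154) and 12.3 in hippocampus (8.54 to 15.9), 6.92 times as large. For Ahnak it was 184 (150 to 218) and 8.15 (5.91 to 11.8), 22.5 times as large. For Hltf it was 8.9 (7.08 to 11.6) and 3.62 (3.15 to 4.59), 2.46 times as large. In each of the 3 ratios all 6 mossy-cell libraries lay above every hippocampus library. For Anxa2 and Ahnak this follows from the separate ranges given above and is not a further result. With fluoxetine the ratios were 9.82, 28 and 3.25 times as large in mossy cells, and again all 7 libraries lay above. In granule cells with vehicle the ratio to Anxa2 was 78.2, 6.61, 5.34 and 3.37 in libraries 1 to 4, and libraries 2 to 4 lay below every hippocampus library. Library 1 had 2 counts of Anxa2. With fluoxetine the ratio was 3.62, 10.3, 1.14 and 1.82, a geometric mean of 2.96 against 13.4 in hippocampus, and 3 of 4 libraries lay below. The ratio to Ahnak with vehicle was 6.22 (2.56 to 13.8), which spans the hippocampus range, and that to Hltf was 2.97 (2.38 to 3.91), with 3 of 4 libraries below every hippocampus library.

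**Figure D3:**
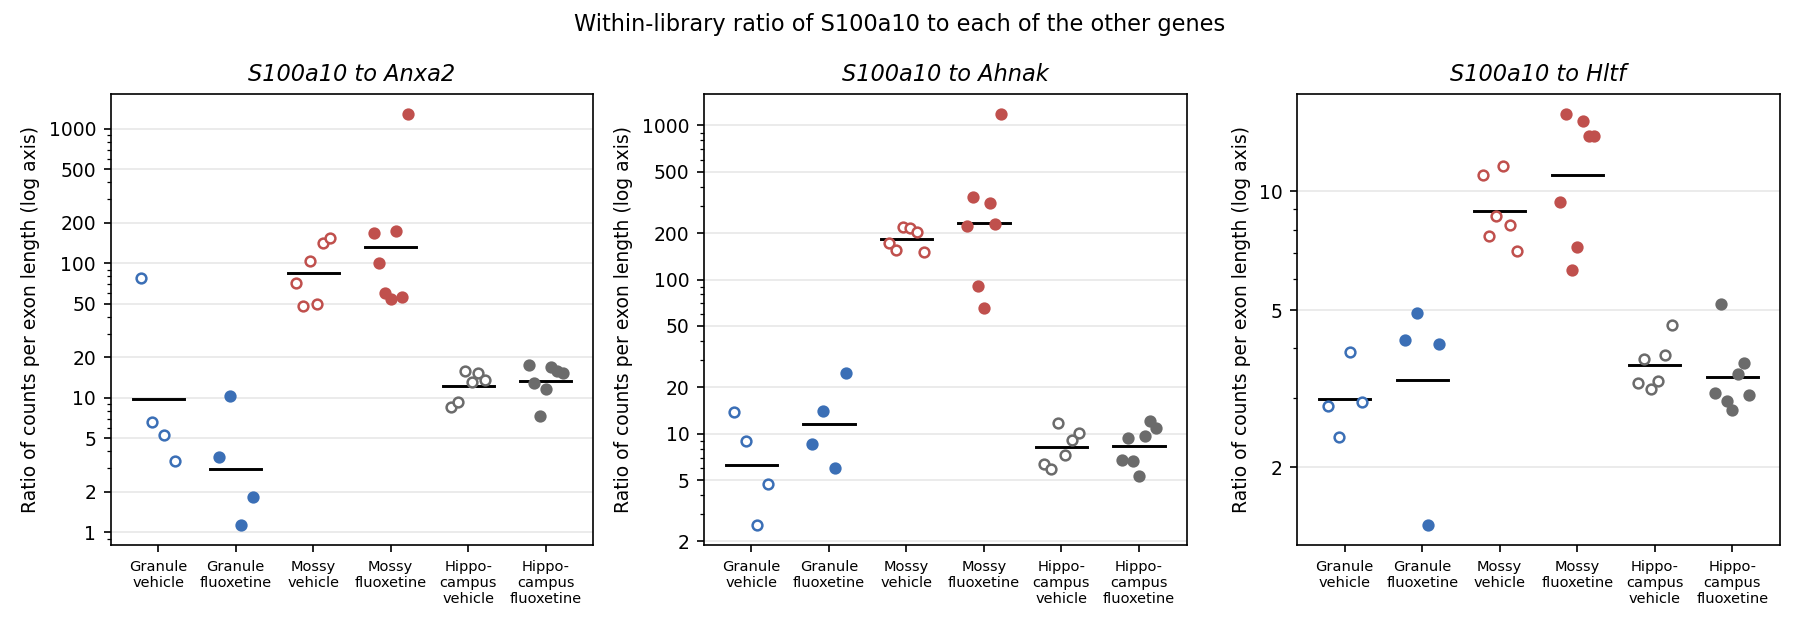
Ratio of S100a10 counts to those of Anxa2, Ahnak and Hltf per exon length in each library (log axis; 0.5 was added to each count), with the geometric mean of each group as a line. Mossy-cell libraries, open for vehicle and filled for fluoxetine, lie above all hippocampus libraries of the same treatment in each panel.

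Granule cells differed from mossy cells in the same 3 genes. This comparison shares the mossy-cell libraries with the one above, so the 2 are not independent. Granule-cell libraries were also numbered apart from the other 26, so source and preparation cannot be told apart. With vehicle, S100a10 stood at 4.16, 11.2, 11.3 and 5.3 CPM in granule-cell libraries 1 to 4. All 4 lay below every mossy-cell library, at 3.27-fold lower (log2 −1.71 ± 0.29, edgeR adjusted p = 2.43e-05). A correction for GC content and length left 2.17-fold (adjusted p = 0.00276). Ahnak stood at 4.95, 20.6, 73.1 and 18.5 CPM in the 4 libraries, all above every mossy-cell library, and was 12.5-fold higher in granule cells (log2 3.64 ± 0.56, edgeR adjusted p = 7.31e-06). Library 3, with 73.1 CPM of Ahnak, also had 202 CPM of endothelial and mural markers against 10.1 to 48.7 in the other 3, and without it Ahnak was 6.19-fold higher (adjusted p = 0.000171). The part of vascular RNA in this value was not tested. The correction for GC content and length gave 8.16-fold for Ahnak.

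Anxa2 stood at 0.132, 5.19, 6.53 and 4.83 CPM in the granule-cell vehicle libraries. Libraries 2 to 4 lay above every mossy-cell library and library 1 below, from 2 counts. The log2 difference was 1.99 ± 0.66 (edgeR adjusted p = 0.0155), and without library 3 it was 1.68 and did not pass (adjusted p = 0.0569). Without mossy-cell vehicle libraries 1, 2 and 4 it was 2.90 (adjusted p = 0.0145). Hltf, at 7.13, 22.9, 14.2 and 8.87 CPM, spanned the mossy-cell range and did not pass (log2 −0.11 ± 0.28, edgeR adjusted p = 0.763). Of all 15444 genes tested, 23.8% were higher and 22.4% lower in granule than in mossy cells. With fluoxetine, where 25.9% were higher and 24.8% lower, S100a10 was 2.96-fold lower (edgeR adjusted p = 4.49e-05; 1.92-fold with the correction for GC content and length), Anxa2 12.3-fold higher (adjusted p = 4.89e-05) and Ahnak 6.06-fold higher (adjusted p = 0.000164), with 4 of 4 granule-cell libraries on that side of every mossy-cell library for S100a10 and Anxa2 and 3 of 4 for Ahnak. Hltf did not pass (log2 0.16 ± 0.27).

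Against hippocampus, 0 of the 4 genes passed in granule cells with vehicle (edgeR; 16.5% of 16124 genes were higher and 13.2% lower, and 6621 genes had an unadjusted p under 0.05). S100a10 came nearest, with 3 of 4 granule-cell libraries below every hippocampus library and a log2 difference of −0.64 ± 0.27 (95% interval −1.18 to −0.09, adjusted p = 0.0724). With DESeq2 it was called (−0.65, adjusted p = 0.0381), and the other 3 genes were not. Anxa2 was at 0.39 ± 0.49, Ahnak at 0.18 ± 0.43 and Hltf at −0.35 ± 0.25. With fluoxetine, 1 of the 4 genes passed, against 21.7% of genes higher and 18.5% lower. Anxa2 was 3.9-fold higher in granule cells (interval 1.99 to 7.62, edgeR adjusted p = 0.00176), and 3 of 4 libraries lay above every hippocampus library. S100a10 was at −0.27 ± 0.25, Ahnak at −0.62 ± 0.43 and Hltf at −0.22 ± 0.24 on the log2 scale.

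**Figure D4:**
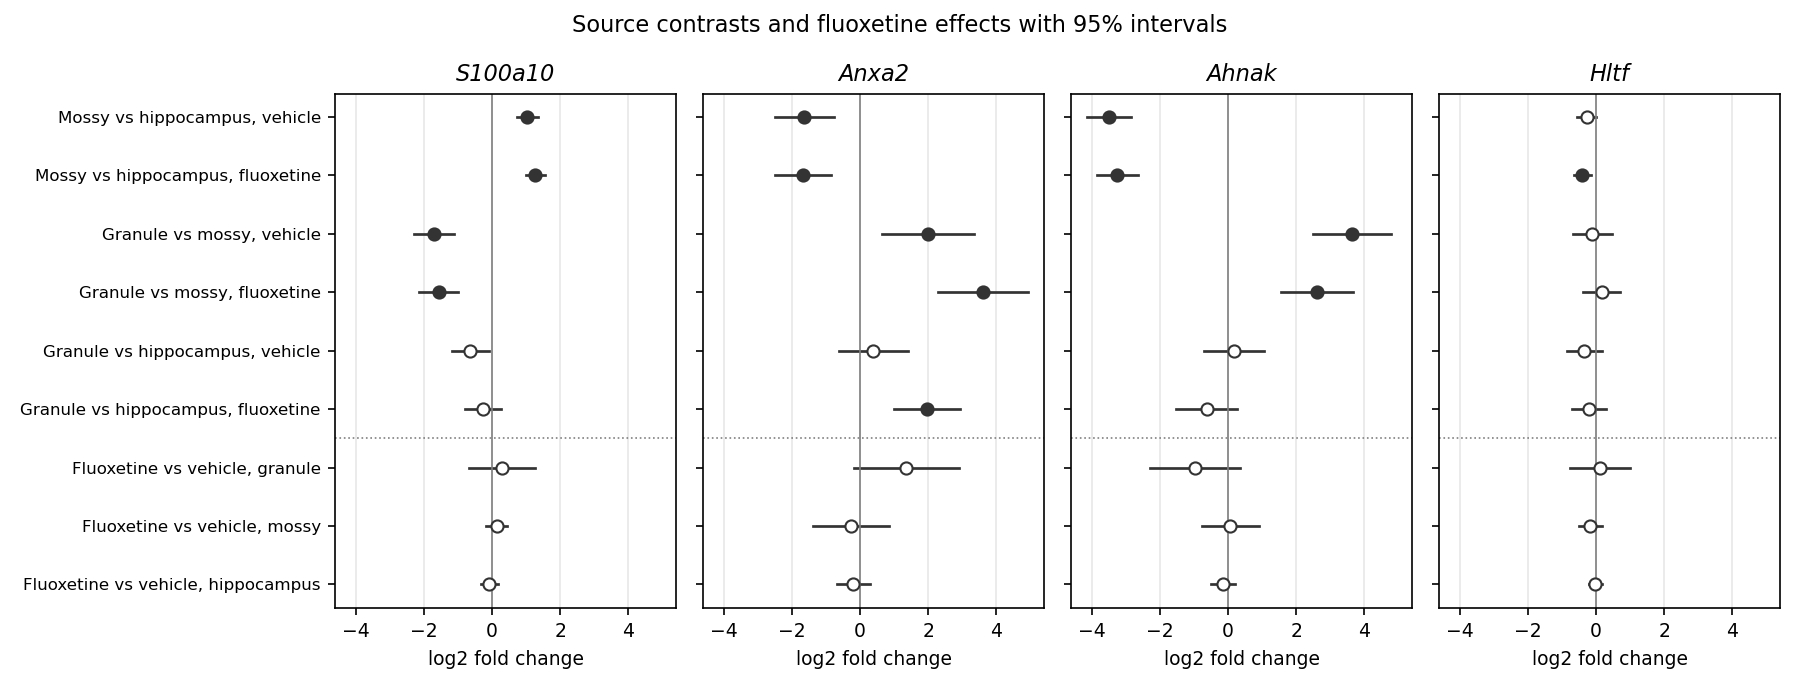
Log2 fold change with 95% interval of each gene in the 6 contrasts between sources (above the dotted line) and the 3 fluoxetine effects (below it). Filled points passed an edgeR adjusted p of 0.05; all 12 points below the dotted line are open.

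Fluoxetine itself was not followed by a change in any of the 4 genes that passed the test in any source. The question was whether fluoxetine alters mRNA of the p11 complex in these cells. The count was 0 of 4 in each of the 3 sources (edgeR). Among all genes tested, 0% passed in granule cells (1056 of 14236 at an unadjusted p under 0.05, and 77 with DESeq2), 9.31% in mossy cells and 30.2% in hippocampus. A p that misses the threshold does not show that levels were alike, so the intervals are given.

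In mossy cells, S100a10 had a median of 25.4 CPM with vehicle and 28 with fluoxetine, and 1 of 7 fluoxetine libraries lay above every vehicle library and 1 below. The fold was 1.1, with a 95% interval of 0.881 to 1.36 (log2 0.13 ± 0.15, edgeR adjusted p = 0.648). Ahnak went from a median of 2.32 to 1.98 CPM, at 1.05-fold (interval 0.587 to 1.87). Anxa2 was at 0.832-fold (interval 0.384 to 1.8), and at a log2 difference of 0.63 (edgeR adjusted p = 0.764) without vehicle libraries 1, 2 and 4. Hltf was at 0.891-fold (interval 0.711 to 1.12). The interval of S100a10 was the narrowest of the 4 on the log2 scale in mossy cells.

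In hippocampus the intervals were the narrowest. S100a10 was at 0.942-fold (interval 0.794 to 1.12), with medians of 12.6 and 10.9 CPM, and 4 of 7 fluoxetine libraries lay below every vehicle library and 1 above. Anxa2 was at 0.868-fold (0.621 to 1.21), Ahnak at 0.901-fold (0.705 to 1.15) and Hltf at 0.985-fold (0.866 to 1.12). The edgeR adjusted p-values of the 4 genes were 0.529 to 0.878. Without vehicle libraries 1, 2 and 4 the log2 values of Anxa2, Ahnak and Hltf changed sign, to 0.11, 0.21 and 0.05, and none passed (edgeR adjusted p = 0.828, 0.469 and 0.768).

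In granule cells the intervals were wide. Same-numbered vehicle and fluoxetine libraries deviated together (r of 0.13 to 0.33), and the fit given does not pair them. With replicate number as a block none of the 4 genes was called. Anxa2 stood at 9.58, 4.18, 17.5 and 12.3 CPM in fluoxetine libraries 1 to 4 and at 0.132, 5.19, 6.53 and 4.83 with vehicle. Fluoxetine libraries 1, 3 and 4 lay above every vehicle library and library 2 among them. The fold was 2.57 (interval 0.875 to 7.53, log2 1.36 ± 0.73), which did not pass (edgeR adjusted p = 0.703). Ahnak stood at 21.5, 16.5, 17.7 and 4.81 CPM with fluoxetine, at 0.515-fold (interval 0.206 to 1.29), and at a log2 value of 0.03 without vehicle library 3. S100a10 stood at 11.3, 14, 6.43 and 7.27 CPM, overlapping the vehicle libraries (1.22-fold, interval 0.625 to 2.37). Hltf stood at 13.1, 13.9, 22 and 8.66 CPM, at 1.08-fold (0.585 to 1.98).

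The difference of the fluoxetine effect between sources was tested directly, and 0 of the 4 genes passed in any of the 3 pairs (edgeR). Genes that passed were 0.044% of all tested for mossy cells minus hippocampus (7 genes, and 116 with replicate number as a block; 1790 at an unadjusted p under 0.05), 0.181% for granule minus mossy cells and 1.98% for granule cells minus hippocampus. S100a10 came to 0.24 ± 0.20, 0.14 ± 0.37 and 0.37 ± 0.36 on the log2 scale in these pairs. Anxa2 came to 1.57 ± 0.70 for granule cells minus hippocampus (edgeR adjusted p = 0.207).

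The S100 and annexin families set S100a10 and Anxa2 beside their relatives. Of 14 other S100 genes, 7 were tested between mossy cells and hippocampus with vehicle, and 7 of 7 were lower in mossy cells, with a median log2 difference of −2.85 where the median of all genes was −0.04. S100a10 was higher. Among the 7 were S100a1 (−3.75 ± 0.22, edgeR adjusted p = 6.72e-15), S100a16 (−2.98 ± 0.20), S100b (−2.85 ± 0.25), which astrocytes express strongly, and S100a11 (−2.68 ± 0.28), a calcium sensor that binds annexin A1. Without vehicle libraries 1, 2 and 4 of both sources 7 of 9 tested S100 genes were lower and 0 higher. Most glial and vascular markers given above were also lower, and S100b is itself in the astrocyte list. The part of these cells in the S100 differences was not tested. With fluoxetine 7 of 7 S100 genes were lower, against 34.1% of all genes. In granule cells against mossy cells with vehicle 5 of 7 were higher and 0 lower, against 23.8% and 22.4% of all genes. For S100a11, the mean was 0.586 ± 0.257 CPM in mossy cells, 3.81 ± 0.487 in hippocampus and 8.6 ± 5.37 in granule cells with vehicle.

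Of 11 other annexins 9 were tested, and 7 were lower and 2 higher in mossy cells than in hippocampus with vehicle (median −1.37), where 32.8% of all genes were lower and 31.3% higher. Anxa2, at −1.64, lay within their range. The higher ones were Anxa7 (0.64 ± 0.07, edgeR adjusted p = 6.34e-09) and Anxa6 (0.44 ± 0.13, adjusted p = 0.00347). Anxa11 (−1.14 ± 0.13, adjusted p = 7.39e-09), Anxa3 (−3.03 ± 0.45) and Anxa1 (−2.59 ± 0.75) were among the lower ones. Without vehicle libraries 1, 2 and 4 of both sources, 6 were lower and 1 higher. Fluoxetine was followed by calls for 0 of 7 tested S100 genes in each source. Annexin calls were 2 of 9 for hippocampus, 0 of 6 for mossy cells and 0 of 7 for granule cells. The 2, Anxa7 (−0.25) and Anxa11 (−0.23), were both lower, no larger a share than the 30.2% of all genes called for hippocampus. Without hippocampus vehicle libraries 1, 2 and 4 the hippocampus annexin count was 0 of 9. For mossy cells 9.31% of all genes were called. For granule cells it was 0%, so the 0 counts there are not particular to these families.

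**Figure D5:**
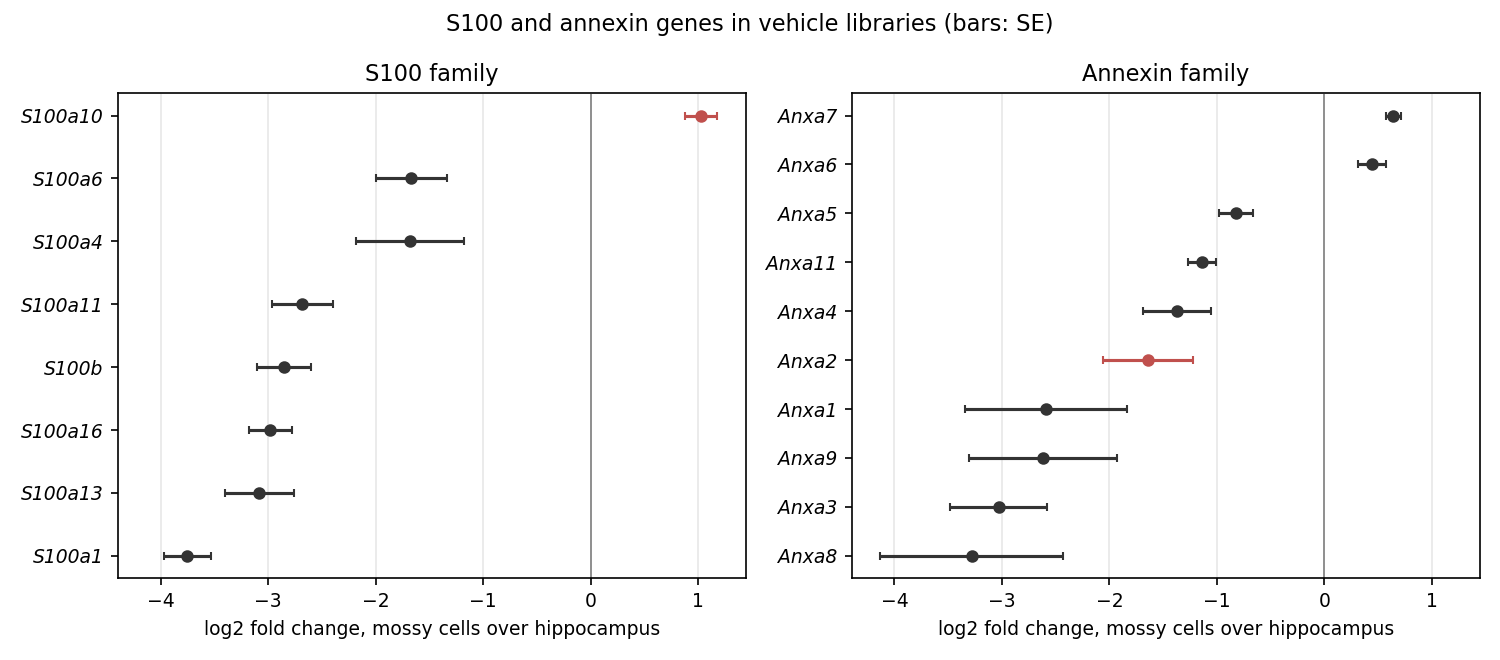
Log2 fold change of mossy cells over hippocampus in vehicle libraries for the tested S100 and annexin genes, with the SE as bars and S100a10 and Anxa2 in red. S100a10 (1.03) is the one S100 gene to the right of 0, and Anxa2 (−1.64) lies among the annexins that are lower.

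Receptors and channels that p11 is known to bind, and other p11 clients, made a list of 14 genes, of which 13 were in the tables and 10 were tested. Between mossy cells and hippocampus with vehicle 6 were higher and 1 lower (median 0.60), where 31.3% of all genes were higher and 32.8% lower. Htr1b, the serotonin 1B receptor, was higher (0.64 ± 0.22, edgeR adjusted p = 0.0134) at 3.23 ± 0.76 CPM against 2.08 ± 0.354, and Htr4, the serotonin 4 receptor, was lower (−1.34 ± 0.21, adjusted p = 2.75e-06) at 3.45 ± 0.848 against 8.74 ± 1.71. Htr4 was highest in granule cells, at 21.4 ± 9.56 CPM. Asic1, an acid-sensing ion channel gene (1.04 ± 0.13, adjusted p = 3.82e-08), Dlc1 (0.74 ± 0.09, adjusted p = 8.27e-09), and Ctsb, which encodes cathepsin B (0.56 ± 0.09, adjusted p = 1.63e-06), were higher. In granule against mossy cells with vehicle 2 of 10 were higher and 5 lower, against 23.8% and 22.4% of all genes. In granule cells against hippocampus 2 were higher and 1 lower, against 16.5% and 13.2%.

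With fluoxetine, 3 of 10 genes of this list were higher in mossy cells and 0 lower, and 6 were higher and 0 lower in hippocampus, while 0 of 9 passed in granule cells. Over all genes 9.31% passed in mossy cells and 30.2% in hippocampus. Glial markers were higher in the same comparisons, with 4 of 7 tested microglia markers (median log2 2.15) and 2 of 8 astrocyte markers (1.15) in mossy cells, and 7 of 8 (1.35) and 6 of 8 (0.77) in hippocampus. None of the tested markers of either list was lower, and their part in the calls of this list and of those that follow was not tested. Ctsb rose by 0.47 ± 0.09 in mossy cells (edgeR adjusted p = 0.00357) and 0.25 ± 0.07 in hippocampus (adjusted p = 0.0137). Asic1 rose by a log2 value of 0.62 ± 0.13 in mossy cells (edgeR adjusted p = 0.00573) and 0.40 ± 0.11 in hippocampus (adjusted p = 0.0115). Plat, the tissue plasminogen activator, rose by 1.02 ± 0.27 (adjusted p = 0.0219) and 0.49 ± 0.15 (adjusted p = 0.0215). Htr1b did not pass in either (0.32 ± 0.24 and 0.13 ± 0.18), and Htr4 passed in hippocampus (0.41 ± 0.15, adjusted p = 0.0464) and not in mossy cells (0.09 ± 0.26). Without vehicle libraries 1, 2 and 4, 0 of 10 passed in mossy cells and 0 of 10 in hippocampus, while Asic1 in mossy cells was at 0.63 ± 0.17 (adjusted p = 0.098). These fits have 3 vehicle libraries in place of 6. Over all genes the calls went from 1325 to 28 in mossy cells and from 4705 to 1031 in hippocampus.

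Genes tied to p11 and SMARCA3 in mossy cells were Drd2, the dopamine D2 receptor and a mossy-cell marker, Nrsn2, which encodes a neuronal vesicle membrane protein, Bdnf and its receptor gene Ntrk2. Drd2 was higher in mossy cells than in hippocampus (3.01 ± 0.19, edgeR adjusted p = 3.83e-14), at 34.9 ± 5.83 against 4.32 ± 0.602 CPM with vehicle, as was Nrsn2 (1.48 ± 0.11, adjusted p = 2.6e-12), at 278 ± 33.3 against 99.9 ± 11.8 CPM. Bdnf was lower (−0.70 ± 0.15, adjusted p = 0.000223). Fluoxetine was followed by a rise of Nrsn2 (0.58 ± 0.11, adjusted p = 0.00341) and Ntrk2 (0.46 ± 0.10, adjusted p = 0.00626) in mossy cells, to 417 ± 81.6 CPM for Nrsn2. Without mossy-cell vehicle libraries 1, 2 and 4 the values were 0.67 ± 0.15 and 0.41 ± 0.13, and neither passed (adjusted p = 0.0634 and 0.142). Ntrk2, which astrocytes also express, rose in hippocampus as well (0.58 ± 0.17, edgeR adjusted p = 0.0155), from 148 ± 7.54 to 222 ± 91.5 CPM. Without hippocampus vehicle libraries 1, 2 and 4 that value was 0.63 ± 0.23 and did not pass (adjusted p = 0.0921). Of the astrocyte markers Slc1a3 was higher by 1.80 in mossy cells and by 1.02 in hippocampus on the log2 scale. Drd2 did not pass in mossy cells (0.49 ± 0.17, adjusted p = 0.0789).

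A list of 9 calcium channel subunit genes was made because AHNAK acts on L-type channels. Of these, 5 were higher and 3 lower in mossy cells than in hippocampus with vehicle, where 31.3% of all genes were higher and 32.8% lower. Cacna2d2 (2.81 ± 0.16, edgeR adjusted p = 4.59e-15) and Cacnb1 (0.90 ± 0.08) were higher, Cacna1d (−0.34) was lower, and Cacna1c did not pass. With fluoxetine 4 of the 9 were higher and 1 lower in mossy cells and 5 higher and 2 lower in hippocampus, against the 9.31% and 30.2% of all genes given above. Cacna1c, the pore-forming subunit of the main L-type channel of brain, was higher in both (0.56 ± 0.12, edgeR adjusted p = 0.00752, and 0.40 ± 0.09, adjusted p = 0.00375), and at 0.45 ± 0.16 (adjusted p = 0.213) in mossy cells without vehicle libraries 1, 2 and 4. Without those libraries 0 of 9 passed in mossy cells, and 3 were higher and 0 lower in hippocampus. Of 13 SNF2-family and RAD5-pathway genes, relatives and partners of Hltf, 4 were higher and 2 lower in mossy cells than in hippocampus with vehicle, no larger a share than that of all genes, among them Smarcal1 (0.76 ± 0.08) and Smarca1 (−0.75 ± 0.10). With fluoxetine 0 of 13 passed in mossy cells or granule cells, and 4 were lower in hippocampus, Smarca5 (−0.26), Ube2n (−0.25), Ube2v2 (−0.24) and Pcna (−0.33), close to the 30.2% of all genes, while 2 of the 13 genes were lower without vehicle libraries 1, 2 and 4.

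The genes whose levels were most like those of each member were taken by Pearson r of log2 CPM after subtracting group means, over 34 libraries. For S100a10 these were Efhd2 (0.81), Numbl (0.75), Adap1 (0.75), Rbpms2 (0.73) and Ppp1r37 (0.73). Efhd2 was close in each source, with 0.80 over mossy-cell, 0.69 over hippocampus and 0.84 over granule-cell libraries. For Anxa2 they were Zfp963, Cpne3, Ckmt1 and Angptl6 (0.81 each) and Tarsl2 (0.79), and for Ahnak they were Khnyn and Lars (0.83 each), Zfp646, Sema4c and Nos1 (0.82 each). For Hltf they were Tnik (0.83), Sptbn1 (0.82), Uevld (0.81) and Actn1 (0.80). Ranked by Spearman's coefficient, 3 of the 5 for S100a10 were again among the top 5, 1 for Anxa2 and 0 for Ahnak and Hltf. The r within the 8 granule-cell libraries was the highest of the 3 sources for most of them. Tarsl2 followed Anxa2 with 0.97 in granule cells and −0.15 in hippocampus.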

How the data were processed

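The members and gene lists were chosen with earlier results of these data known. The authors deposited 3 tables, 1 for each source, of whole-number gene counts. The submitters' processing notes name the GRCm38 build, HTSeq 0.7.2, STAR 2.5.2b and edgeR. The annotation, the strand setting and the treatment of reads with several alignments are not given in the sources used here. Per the labels' protocols, cDNA was amplified from 500 pg of RNA and read as 50 bp pairs, so counts are not independent molecules.

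Fluoxetine effects were fitted within each source, and source contrasts and differences of effects in fits over 2 sources with 4 group means, by edgeR 4.0.16 (R 4.3.3; TMM, filterByExpr, glmQLFit, glmQLFTest, two-sided), with Benjamini-Hochberg adjustment over all genes and a threshold of 0.05. Each fit was checked on simulated counts. Contrasts between fluoxetine groups, within-library ratios and the fits without hippocampus vehicle libraries 1, 2 and 4 were added after the data were seen. Intervals are 95%. Alternatives were other scalings, no filter, a correction for GC content and length, leaving out Rn45s and Lars2, a replicate block, DESeq2 1.42.0, limma 3.58.1 (voom with quality weights), removal of libraries that stood apart and of each library in turn. Exon lengths and positions are from GENCODE M21 (GRCm38), to which 22753 symbols matched directly, and promoters from RefSeq. Named genes were the 4 members, the 5 genes most like each (1 for Hltf is not reported here), and from each list up to 4 genes by smallest adjusted p besides Htr1b, Htr4, Drd2 and Nrsn2; Anxa6, Plat, Cacna1c, Smarca5, Ube2n, Ube2v2, Pcna, Vip, Dcn, Calb2, Calcrl and Slc1a3 were named after their values were seen. Same-numbered libraries deviated together between mossy cells and hippocampus (r of 0.20 to 0.42 with vehicle and 0.12 to 0.62 with fluoxetine) and between the granule-cell treatments (0.13 to 0.33), so the numbers pair these. Pairs of replicates differed by chi-square to degrees of freedom ratios of at least 6.56, so no library was a copy.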

Additional observations from a re-analysis of the deposited data

How the results depend on the processing

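All values are log2 differences. Of 480 values under other settings 444 kept direction and call, 2 lost a call, 6 gained one and 28 changed sign, and of 952 without 1 library these numbers were 911, 1, 7 and 33. In 60 of these sign changes the gene was called in neither fit. The other was Hltf between mossy cells and hippocampus with fluoxetine, at 0.06 with the correction for GC content and length (0.16 with vehicle). That correction also gave −0.06 for the Ahnak effect of fluoxetine in mossy cells, 0.05 for S100a10 in hippocampus, −0.48 for Hltf in granule against mossy cells with fluoxetine and 0.15 for S100a10 in granule cells against hippocampus with fluoxetine. With limma-voom, fluoxetine effects were −0.11 for S100a10 and −0.02 for Hltf in granule cells, 0.02 for Anxa2 in mossy cells and 0.03 for Hltf in hippocampus, and Hltf in granule against mossy cells with vehicle was 0.15. The differences of effects were 0.13 for Anxa2 (mossy cells minus hippocampus), −0.32 for S100a10 (granule minus mossy cells), and −0.01 for S100a10 and −0.04 for Hltf (granule cells minus hippocampus). With replicate number as a block, the effects were 0.01 for Anxa2 in mossy cells and 0.00 for Hltf in hippocampus, and the contrasts were −0.48 for Ahnak in granule cells against hippocampus with vehicle and −0.12 for Hltf in granule against mossy cells with fluoxetine. The block ended the calls of Anxa2 in granule against mossy cells with vehicle (1.28, adjusted p = 0.289) and against hippocampus with fluoxetine (1.73, adjusted p = 0.106), where the numbers do not pair the libraries, and it changed no other call of the 4 genes. Without vehicle libraries 1, 2 and 4, Anxa2 was at 0.63 in mossy cells and Anxa2, Ahnak and Hltf at 0.11, 0.21 and 0.05 in hippocampus, and the difference of effects for Anxa2 (mossy cells minus hippocampus) was 0.88 without those of mossy cells and 0.58 without those of both, and for Ahnak −0.10 without those of hippocampus. Without mossy-cell fluoxetine libraries 2 and 4, which earlier results had named as high in glial markers, Ahnak was at −0.20 in mossy cells and its difference of effects at −0.04. In the lists used here only library 4 stood apart. Library 2 held 372 CPM of astrocyte and 25.1 CPM of microglia markers, within the range of the libraries other than 4. Hltf in mossy cells against hippocampus with vehicle passed with DESeq2 size factors (−0.31), upper-quartile scaling (−0.39), DESeq2 (−0.31) and limma-voom (−0.26), and S100a10 in granule cells against hippocampus with vehicle with upper-quartile scaling (−0.75) and DESeq2 (−0.65). Upper-quartile scaling moved the median of all genes by −0.12 to −0.17 in contrasts against hippocampus. Leaving out 1 library gave ranges for the fluoxetine effect of −1.31 to 0.03 (Ahnak) and −0.15 to 0.50 (Hltf) in granule cells, −0.22 to 0.26 (Ahnak) in mossy cells and −0.07 to 0.05 (Hltf) in hippocampus. For mossy cells against hippocampus with vehicle Hltf ranged from −0.33 to −0.22. For granule against mossy cells Anxa2 with vehicle ranged from 1.68 to 2.38, and Hltf from −0.51 to 0.09 with vehicle and −0.10 to 0.33 with fluoxetine. For granule cells against hippocampus with vehicle the ranges were −0.85 to −0.43 (S100a10), −0.81 to 0.52 (Ahnak) and −0.74 to −0.15 (Hltf). The differences of effects ranged from −0.23 to 0.19 (Anxa2) and −0.05 to 0.45 (Ahnak) for mossy cells minus hippocampus, −0.09 to 0.36 (S100a10) for granule minus mossy cells, and −1.14 to 0.19 (Ahnak) and −0.16 to 0.53 (Hltf) for granule cells minus hippocampus. Genes called over the whole table moved by over 1.5 times for fluoxetine in mossy cells (1325, against 753 without fluoxetine libraries 2 and 4, and 773 to 1744 without 1 library), for granule cells against hippocampus (4782, against 1762 with the block and 2581 without hippocampus vehicle libraries 1, 2 and 4, and with fluoxetine 6469 against 3468 with the block) and for the differences of effects (7, from 0 to 116; 28, from 0 to 354; 320, from 0 to 1348). DESeq2 gave no adjusted p for Anxa2 in mossy cells. The cause of these changes was not tested. The few counts of Anxa2 in mossy cells, down to 2, and the 4 granule-cell libraries a group limit what these data can resolve.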
